A study of Mus musculus with 6 samples.

Results

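The 87 genes described here encode the receptors through which cells sense GABA, glutamate, acetylcholine, glycine and serotonin. They are all rows of the count table whose gene symbol begins with the stem of such a receptor family (Gabr, Gabbr, Gria, Grik, Grin, Grid, Grm, Chrn, Chrm, Glr or Htr followed by a subunit number or letter), 87 of 23845 genes, and no measured value entered that choice. They comprise 19 GABA-A subunits, 2 GABA-B subunits, 5 kainate, 7 NMDA, 4 AMPA and 2 delta glutamate receptor subunits, 8 metabotropic glutamate receptors, 16 nicotinic subunits, 5 muscarinic receptors, 14 serotonin receptors and 5 glycine receptor subunits. Transcripts of mouse intestinal epithelial cells were counted by RNA-seq in 6 libraries, 2 for each of 3 groups. EYFP cells carried the genotype Neurog3+/+EYFP, with 2 Neurog3 alleles and an EYFP reporter, on a mixed C57BL6 and CD1 strain. EGFP cells carried the genotype Neurog3+/-EGFP, with 1 Neurog3 allele and an EGFP reporter, on C57BL6. Wild-type epithelium was labelled C57BL6, with no reporter named, and its libraries were titled Duod, read here as duodenum. The titles of the sorted cells name no gut segment. Gut segment therefore cannot be told apart from genotype in comparisons with wild type. Reporter-positive cells were obtained by flow sorting, per the series' design text, and the series asks how the dose of Neurog3 affects the differentiation of enteroendocrine progenitors. The labels do not describe the wild-type cells as sorted, and give neither age nor treatment. They do not say whether libraries of a group came from separate animals, so that every p-value measures only the spread between these libraries. Fewer cells of a type and less RNA per cell cannot be told apart in such bulk libraries.

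Neurog3 is the transcription factor that commits gut progenitors to the enteroendocrine lineage, whose cells release hormones and serotonin and are electrically excitable. Ionotropic receptors are channels built from several subunits around a pore: the GABA-A and glycine receptors pass chloride, and the nicotinic, AMPA, kainate and NMDA receptors pass cations. The GABA-B, metabotropic glutamate and muscarinic receptors, and most serotonin receptors, act through G proteins instead. In the gut these receptors are best known from enteric neurons, and several are also known from enteroendocrine and other epithelial cells.

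Libraries held 12415664 and 10173137 estimated counts for EYFP cells, 7938358 and 11714961 for EGFP cells and 13674214 and 20589683 for wild-type epithelium, so that 1 count was worth 0.0603 to 0.121 CPM, counts scaled to a common library total. Neurog3 stood at 563 and 348 CPM in EYFP cells, 119 and 179 CPM in EGFP cells, and 5.99 and 6.39 CPM in wild-type epithelium. The 14 enteroendocrine markers examined summed to 63672 and 48576 CPM in EYFP cells, 9661 and 14555 CPM in EGFP cells and 554 and 625 CPM in wild-type epithelium. Markers of goblet, Paneth and tuft cells (13 genes) summed to 836 and 1137 CPM in EYFP cells, 30838 and 49912 CPM in EGFP cells, and 11183 and 15305 CPM in wild-type epithelium. Strain, reporter and sex-linked transcripts differed together with the allele number: Xist was at 0.606 and 2.38 CPM in EYFP cells, 966 and 969 CPM in EGFP cells and 1.15 and 726 CPM in wild-type epithelium. Their part in the differences below cannot be told apart from that of the allele number.

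Most of these receptor genes were silent or nearly so at this depth. A total of 25 of the 87 had 0 counts in all 6 libraries, 20 more had fewer than 10 counts in all, and 42 had 10 or more. Over all genes of the table, 5130 (21.5%) had 0 counts in all 6 libraries. At least 1 CPM in both libraries of a group was reached by 23 receptor genes in EYFP cells, 21 in EGFP cells and 12 in wild-type epithelium, which is 26.4%, 24.1% and 13.8% of the 87; over all genes of the table these shares were 53.5%, 52.4% and 50.8%. The summed level of the 87 genes was 407 and 417 CPM in EYFP cells, 176 and 208 CPM in EGFP cells and 48.0 and 58.7 CPM in wild-type epithelium. The order EYFP, EGFP, wild type therefore held for the summed level in every library, and the groups did not overlap. By family, 6 of 19 GABA-A and 5 of 7 NMDA subunits reached 1 CPM in EYFP cells, while 0 of 4 AMPA and 0 of 5 glycine receptor subunits did in any group.

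**Figure D1:**
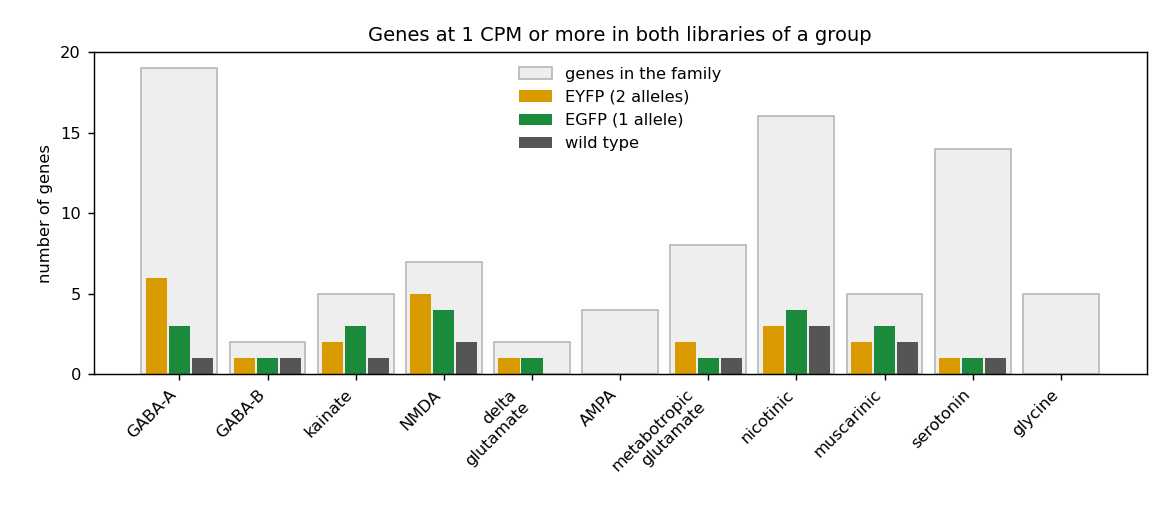
Number of receptor genes that reached 1 CPM in each of the 2 libraries of a group (y axis, genes), by receptor family (x axis). Pale bars give the size of the family, coloured bars EYFP cells, EGFP cells and wild-type epithelium; the AMPA and glycine receptor families have no coloured bar, and the GABA-A family has 6 genes in EYFP cells, 3 in EGFP cells and 1 in wild-type epithelium.

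Of the 29 receptor genes with enough counts to be tested, 15 rose and 3 fell in EYFP cells relative to EGFP cells, and 11 did not pass. Among all 13935 genes tested, 36.2% passed, 16.8% upward and 19.4% downward. The median log2 fold change of the 29 was 1.31, beside 0.01 over all genes tested. In EGFP cells against wild-type epithelium, 21 rose, 1 fell and 7 did not pass (all genes tested: 41.5% passed, 19.6% upward and 21.9% downward), with a median of 2.51, or 2.44 with the 1 gene that wild type lacked set at its lower bound. In EYFP cells against wild-type epithelium, 22 rose, 3 fell and 4 did not pass (all genes tested: 60.6% passed, 27.1% upward and 33.5% downward), with a median of 3.46, or 3.37 with that gene at its bound. The 3 comparisons share libraries, and a gene low everywhere but in 1 group entered the test through that group, so these counts and medians describe the 29 tested genes and not the 87. Over all genes tested, the median log2 fold change of EYFP cells over wild-type epithelium was -0.12, and -0.01 with DESeq2 size factors.

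**Figure D2:**
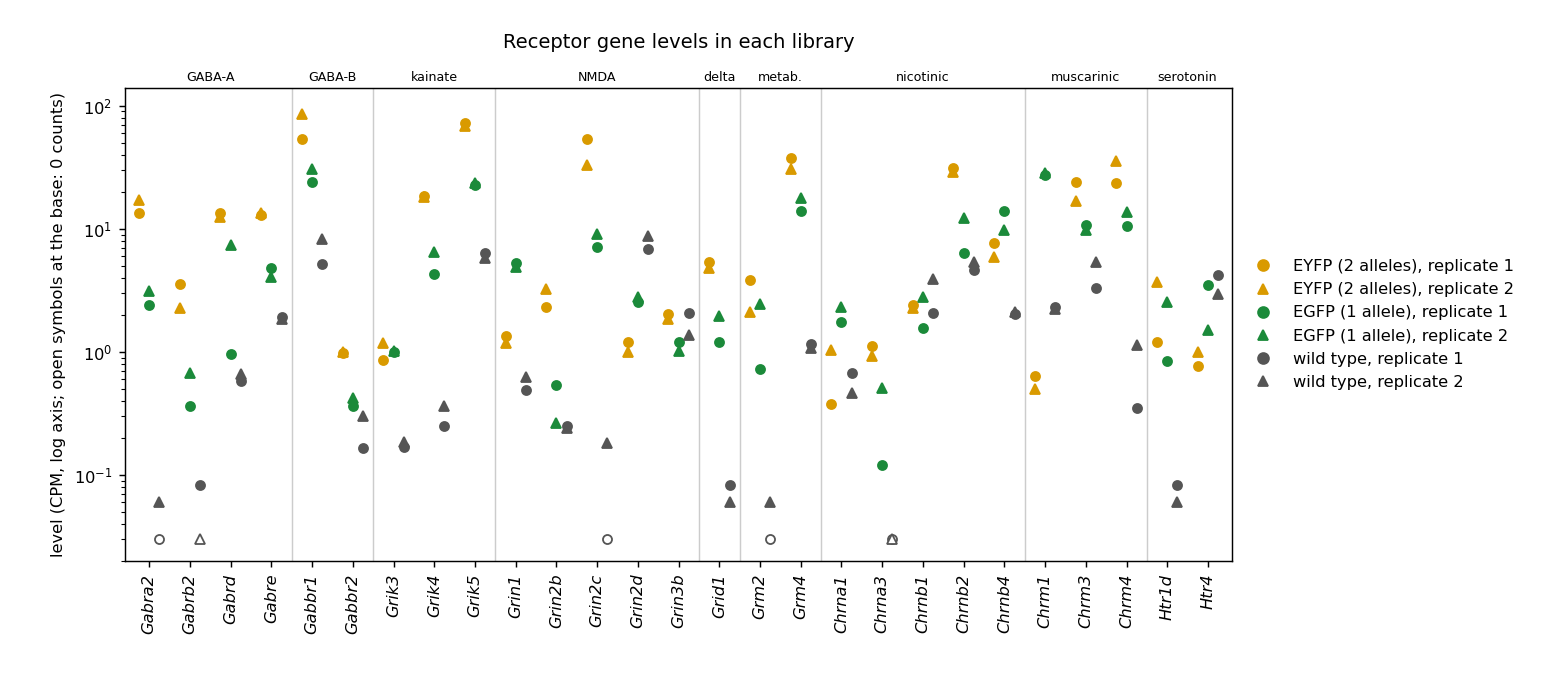
Level of 27 of the 29 tested receptor genes in each library (y axis, CPM, log scale), with genes ordered by family along the x axis and groups in the order EYFP, EGFP and wild type from left to right within a gene; circles are replicate 1 and triangles replicate 2, and open symbols at the base mark 0 counts. Chrm1 is the gene whose EYFP libraries (0.634 and 0.504 CPM) lie furthest under its EGFP libraries (27.5 and 28.4 CPM).

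**Figure D3:**
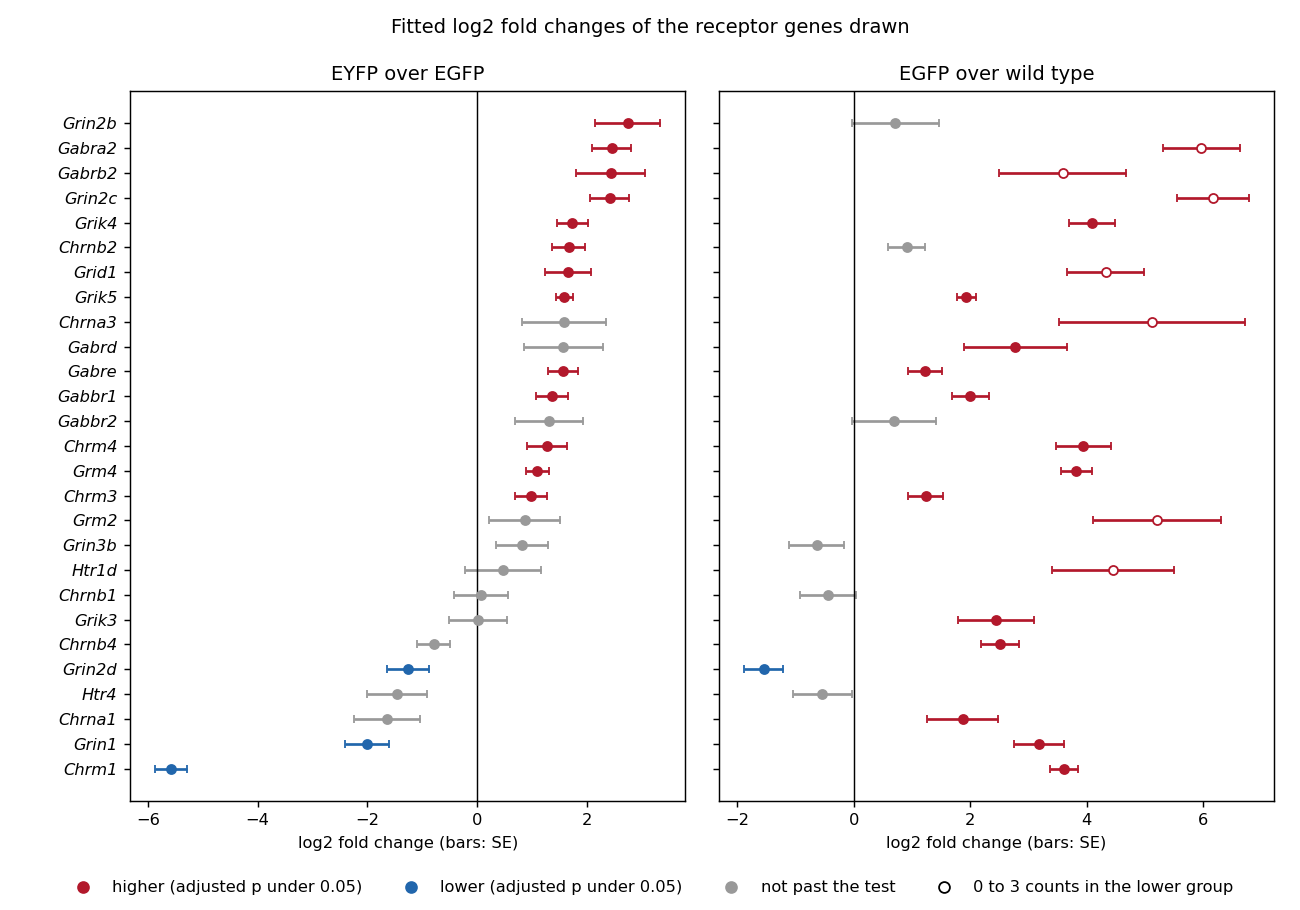
Fitted log2 fold changes with their SE (x axes) of 27 of the 29 tested receptor genes, EYFP over EGFP cells on the left and EGFP cells over wild-type epithelium on the right, coloured by the edgeR call. Open points mark genes with 0 to 3 counts in the lower group, whose fitted value depends on the prior count and is no measured fold. On the left 13 of these genes lie past the test above 0 and 3 below it.

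The promoters of the genes that differed most are printed here for the channel subunits with a RefSeq promoter, as letters of the region from 250 bases before to 50 after the start annotated for that promoter (GRCm38.p6, the build mm10). For Grin2c and Grik4 that start lies inside the span given below for the gene, and the Grik4 window lies wholly within it. The promoters printed belong to 3 subunits higher in EYFP than in EGFP cells, called under every alternative tried, and to the 1 channel subunit with the largest fall, Grin1. All lie on the minus strand, at chr11:115267194-115267493 (Grin2c), chr5:71095800-71096099 (Gabra2), chr9:42944322-42944621 (Grik4) and chr2:25319138-25319437 (Grin1), and capitals mark GGGCGG or its reverse complement CCGCCC, the core of the GC box bound by Sp1.
Grin2c: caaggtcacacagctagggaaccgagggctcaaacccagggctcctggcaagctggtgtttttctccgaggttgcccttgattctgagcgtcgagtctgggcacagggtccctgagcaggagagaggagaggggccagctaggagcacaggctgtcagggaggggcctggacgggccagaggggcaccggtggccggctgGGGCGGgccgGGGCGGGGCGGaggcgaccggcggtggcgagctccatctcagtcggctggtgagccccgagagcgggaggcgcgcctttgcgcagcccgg
Gabra2: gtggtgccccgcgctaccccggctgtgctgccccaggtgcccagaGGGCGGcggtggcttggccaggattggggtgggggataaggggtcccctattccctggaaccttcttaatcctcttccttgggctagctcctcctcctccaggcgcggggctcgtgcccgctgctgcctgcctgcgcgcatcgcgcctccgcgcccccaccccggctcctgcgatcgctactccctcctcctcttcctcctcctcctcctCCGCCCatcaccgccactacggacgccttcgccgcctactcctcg
Grik4: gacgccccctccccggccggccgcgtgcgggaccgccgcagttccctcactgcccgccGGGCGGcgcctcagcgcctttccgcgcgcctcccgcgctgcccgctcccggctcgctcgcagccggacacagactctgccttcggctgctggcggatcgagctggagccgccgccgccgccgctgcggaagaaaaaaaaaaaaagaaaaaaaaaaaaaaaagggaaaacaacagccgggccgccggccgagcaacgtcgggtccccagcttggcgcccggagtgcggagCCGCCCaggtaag
Grin1: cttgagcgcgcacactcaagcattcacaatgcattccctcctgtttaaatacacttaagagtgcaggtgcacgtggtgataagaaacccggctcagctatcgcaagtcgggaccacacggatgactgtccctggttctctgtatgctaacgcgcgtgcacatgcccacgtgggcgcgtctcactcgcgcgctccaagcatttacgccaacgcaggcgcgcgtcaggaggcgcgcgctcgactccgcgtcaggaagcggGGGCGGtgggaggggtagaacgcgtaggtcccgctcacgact
These windows were 70% G or C in Grin2c, Gabra2 and Grik4 and 60.7% in Grin1, against a median of 52.7% over 32851 RefSeq promoters. They held 22, 25, 42 and 33 CG dinucleotides in that order, against a median of 7. Of the 18 receptor genes called between EYFP and EGFP cells, 12 had a promoter in the RefSeq table, and 10 of the 12 held GGGCGG on either strand, as did 35.7% of all promoters. A gene with several promoters was counted if any of them matched, while all promoters were counted singly. Among tested receptor genes not called, Gabbr2, Grik3, Htr1d, Chrna3, Grm2 and Chrnb1 held it too, and Chrna1, Chrnb4 and Grin3b did not. The E-box CAGATG was in 0 of the 12 and in 17.2% of all promoters, the E-box CAGCTG in 0 of the 12 and in 16.3%, and TTCAGCACC, the start of the REST site, in 0 of the 12 and in 0.371%, each counted on both strands. A match of letters is a description of the window, and no match says only that these letters are absent from it.

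GABA-A receptor subunits were scarce in wild-type epithelium and were highest in EYFP cells. The family summed to 53.9 and 62.2 CPM in EYFP cells, 10.6 and 19.8 CPM in EGFP cells and 3.13 and 3.56 CPM in wild-type epithelium. Gabra2, an alpha subunit that forms part of the GABA binding site, lies on chromosome 5 from 70958392 to 71095849. It stood at 13.5 and 17.3 CPM in EYFP cells, 2.41 and 3.13 CPM in EGFP cells, and 0 and 0.0603 CPM in wild-type epithelium. The groups did not overlap, and wild-type epithelium held a single count. Gabra2 was 5.48-fold higher in EYFP than in EGFP cells (a log2 fold change of 2.45 ± 0.35 SE, edgeR adjusted p = 0.0019). Against the single wild-type count the ratio was 434 in EYFP cells (95% interval of counting error 77.5 to 17190, edgeR adjusted p = 1.9e-05) and 81.0 in EGFP cells (14.0 to 3255, adjusted p = 0.00032). Without wild-type replicate 1 the ratios were 252 and 47.0 in EYFP and EGFP cells. Without wild-type replicate 2, which held the count, the bounds were at least 60.8-fold and at least 11.3-fold.

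The beta subunit Gabrb2 was at 3.59 and 2.27 CPM in EYFP cells, 0.362 and 0.676 CPM in EGFP cells, and 0.0832 and 0 CPM in wild-type epithelium. The EYFP libraries lay above all others. Gabrb2 rose by 2.44 ± 0.64 on the log2 scale in EYFP over EGFP cells (edgeR adjusted p = 0.021, 0.013 to 0.13 over the alternatives, lost without EYFP replicate 1 or either EGFP replicate). Against the single wild-type count its ratio was 85.5 in EYFP cells (14.9 to 3420, adjusted p = 0.00071) and 15.6 in EGFP cells (2.27 to 673, adjusted p = 0.031, 0.023 to 0.17), and the second call was lost without either EGFP replicate, wild-type replicate 2 or EYFP replicate 1. Without wild-type replicate 1 the EYFP and EGFP bounds were at least 16.5-fold and at least 3.02-fold. Without wild-type replicate 2 the ratios were 35.9 and 6.57.

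The epsilon subunit Gabre, an X-linked gene, was at 12.9 and 13.4 CPM in EYFP cells, 4.82 and 4.06 CPM in EGFP cells and 1.91 and 1.87 CPM in wild-type epithelium, the only GABA-A subunit at 1 CPM in wild type. It was 2.96-fold higher in EYFP than in EGFP cells (a log2 fold change of 1.57 ± 0.27, edgeR adjusted p = 0.0038) and 2.33-fold higher in EGFP cells than in wild-type epithelium (adjusted p = 0.011). The delta subunit Gabrd, typical of receptors outside synapses, was at 13.4 and 12.4 CPM in EYFP cells, 0.964 and 7.44 CPM in EGFP cells and 0.583 and 0.663 CPM in wild-type epithelium. Its EGFP libraries lay far apart, and the difference between EYFP and EGFP cells did not pass (1.57 ± 0.72, adjusted p = 0.14). Gabrd passed in EYFP cells over wild type (4.35 ± 0.87, adjusted p = 0.0054) and in EGFP cells over wild type (2.77 ± 0.89, adjusted p = 0.047). Without EGFP replicate 2, EGFP cells over wild type gave 0.62 (adjusted p = 0.48), and EYFP over EGFP cells gave 3.73 and passed. The adjusted p of EGFP cells over wild type ranged from 0.001 to 0.48 over the alternatives, and the call was lost in 8 of 13.

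The neighbours of Gabra2 did not share its level. The gene lies in a cluster on chromosome 5 with Gabrg1, Gabra4 and Gabrb1, which had 0, 2 and 1 counts over all 6 libraries. Gabra3, Gabra5, Gabra6, Gabrg3, Gabrp, Gabrq, Gabrr1, Gabrr2 and Gabrr3 were at 0 or had too few counts to be tested.

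The GABA-B receptor needs both of its subunits, one that binds GABA and one that carries it to the surface and couples to the G protein. Gabbr1, the GABA-binding subunit, was at 53.9 and 86.7 CPM in EYFP cells, 23.9 and 30.5 CPM in EGFP cells and 5.2 and 8.33 CPM in wild-type epithelium. The 3 groups did not overlap: it was 2.58-fold higher in EYFP than in EGFP cells (a log2 fold change of 1.37 ± 0.30, edgeR adjusted p = 0.012), and 3.99-fold higher in EGFP cells than in wild type (adjusted p = 0.0024). The first call ranged in adjusted p from 0.0002 to 0.082 over the alternatives and was lost without EYFP replicate 2 or EGFP replicate 1. Gabbr2, the coupling subunit, was at 0.986 and 1.01 CPM in EYFP cells, 0.362 and 0.423 CPM in EGFP cells and 0.166 and 0.301 CPM in wild-type epithelium. It passed in EYFP cells over wild type (2.0 ± 0.62, adjusted p = 0.024, 0.018 to 0.14 over the alternatives, lost in 7 of 13) but not in EYFP over EGFP cells (1.31 ± 0.61, adjusted p = 0.13). Per kilobase of transcript, the level of Gabbr1 was 59.9 and 94.2 times that of Gabbr2 in EYFP cells, 72.3 and 79.0 times in EGFP cells and 34.2 and 30.3 times in wild-type epithelium. This ratio, like the other subunit ratios given here, was chosen after the values were seen, and it rests on 2 to 14 Gabbr2 counts per library.

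Of 13 tested genes for proteins that hold and regulate these inhibitory receptors, 6 passed upward in EYFP over EGFP cells, 0 passed downward and 7 passed neither way. Their median log2 fold change was 0.59. They passed upward in 46.2% and downward in 0%, beside 16.8% and 19.4% of all genes tested. This list, like the other partner and transmitter lists below, was chosen with earlier results of these data known. The shares of such lists describe only the genes listed. Lhfpl4, which anchors GABA-A receptors at synapses, rose by 2.13 ± 0.45 to 4.71 and 6.81 CPM in EYFP cells, against 0.965 and 1.58 CPM in EGFP cells (edgeR adjusted p = 0.0096, 0.0031 to 0.066 over the alternatives, lost without EYFP replicate 2 or EGFP replicate 1). Kctd12b, of the family of auxiliary GABA-B subunits, was at 47.7 and 30.2 CPM in EYFP cells, 10.3 and 9.64 CPM in EGFP cells and 1.25 and 0.753 CPM in wild-type epithelium (1.97 ± 0.29, adjusted p = 0.002). Against wild type, 6 of the 13 were higher and 1 lower in EGFP cells (46.2% and 7.69%, beside 19.6% and 21.9% of all genes tested). In EYFP cells 6 were higher and 3 lower (46.2% and 23.1%, beside 27.1% and 33.5%). Lhfpl4, with 3 wild-type counts, had ratios to wild type of 54.1 in EYFP cells (18.2 to 265) and 12.8 in EGFP cells (3.94 to 65.9). Gephyrin (Gphn, named after its values were seen), the scaffold of these receptors at synapses, stayed between 39.8 and 56.4 CPM in all libraries and passed no test.

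**Figure D4:**
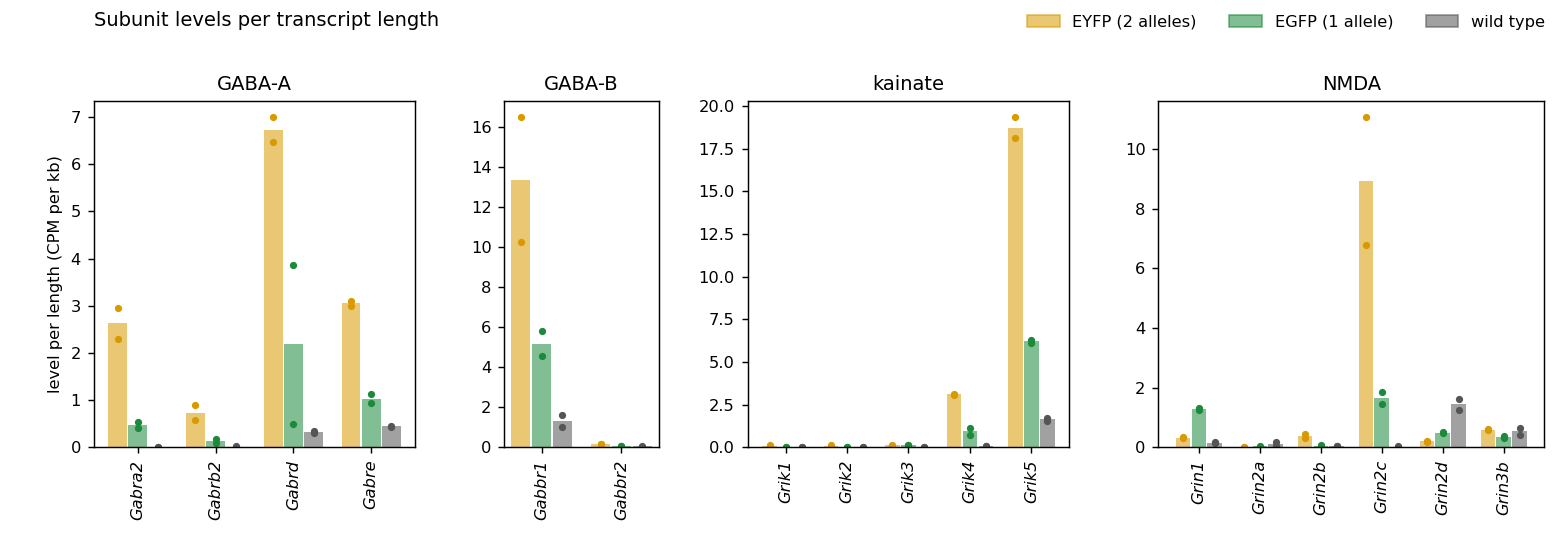
Level per length (y axes, CPM per kilobase of transcript) of subunits of 4 receptor families, with bars at the mean of 2 libraries, points for each library, and groups in the order EYFP, EGFP and wild type from left to right; the y axis differs between panels. Gabbr1, Grik5 and, in EYFP cells, Grin2c exceed every other subunit of their own panel.

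Kainate receptor genes summed to 93.1 and 88.0 CPM in EYFP cells, 28.2 and 31.4 CPM in EGFP cells and 6.83 and 6.39 CPM in wild-type epithelium. Most of these reads came from Grik5, a subunit that binds glutamate with high affinity but forms channels only with Grik1, Grik2 or Grik3. Grik5, on chromosome 7 from 25009849 to 25075694, was at 72.8 and 68.2 CPM in EYFP cells, 22.9 and 23.8 CPM in EGFP cells and 6.41 and 5.84 CPM in wild-type epithelium. Replicates lay close together and the groups far apart: EYFP cells were 3.02-fold above EGFP cells (a log2 fold change of 1.60 ± 0.15, edgeR adjusted p = 0.00045) and EGFP cells 3.81-fold above wild type (adjusted p = 0.0001). Grik4, the other high-affinity subunit, lies on chromosome 9 from 42518182 to 42945000. It was at 18.4 and 18.1 CPM in EYFP cells, 4.33 and 6.51 CPM in EGFP cells and 0.25 and 0.362 CPM in wild-type epithelium, a 3.34-fold rise in EYFP over EGFP cells (1.74 ± 0.28, adjusted p = 0.0031) and a 17.0-fold rise in EGFP cells over wild type (adjusted p = 0.00018). Both genes were called in all 3 comparisons under each of the 13 alternatives.

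The subunits that can form kainate channels by themselves were scarce. Grik3 was at 0.863 and 1.19 CPM in EYFP cells, 1.01 and 1.02 CPM in EGFP cells, and 0.168 and 0.184 CPM in wild-type epithelium. It passed in EGFP cells over wild type (2.44 ± 0.65, edgeR adjusted p = 0.018, 0.015 to 0.10 over the alternatives, lost in 5 of 13) and in EYFP cells over wild type (2.46 ± 0.63, adjusted p = 0.011, 0.0084 to 0.067, lost without EYFP replicate 2 or either wild-type replicate). Its value in EYFP over EGFP cells was 0.02 ± 0.52 (adjusted p = 1). Grik2 had 10 and 2 counts in the EYFP libraries and 0 in the other 4, and Grik1 had 4 and 5 counts in EYFP cells, 0 and 1 in EGFP cells and 0 in wild type. Per kilobase, the summed level of Grik4 and Grik5 was 78.4 and 76.9 times that of Grik1, Grik2 and Grik3 together in EYFP cells, 60.9 and 54.3 times in EGFP cells, and 93.2 and 78.6 times in wild-type epithelium. The denominator held 2 to 26 counts per library.

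NMDA receptor subunits moved in opposite directions in EYFP over EGFP cells. These receptors pair the obligatory glycine-binding subunit Grin1 with Grin2 subunits, which bind glutamate. Grin2c, on chromosome 11 from 115249169 to 115267297, was at 54.2 and 33.3 CPM in EYFP cells, 7.11 and 9.13 CPM in EGFP cells and 0 and 0.181 CPM in wild-type epithelium. It was 5.36-fold higher in EYFP than in EGFP cells (a log2 fold change of 2.42 ± 0.35, edgeR adjusted p = 0.0024). With 3 counts in wild type, its ratio to wild type was 426 in EYFP cells (95% interval 145 to 2069) and 79.1 in EGFP cells (26.6 to 388), both past the test. Without wild-type replicate 1 the EYFP and EGFP ratios were 247 and 45.9. Without wild-type replicate 2 the bounds were at least 179-fold and at least 33.2-fold. Grin1, on chromosome 2 from 25291177 to 25319187, was at 1.34 and 1.19 CPM in EYFP cells, 5.28 and 4.92 CPM in EGFP cells and 0.495 and 0.63 CPM in wild-type epithelium. EGFP cells thus had the most Grin1 and the other groups less: it was 4.02-fold lower in EYFP cells relative to EGFP cells (-2.01 ± 0.40, adjusted p = 0.0073) and 9.03-fold higher in EGFP cells than in wild type (3.18 ± 0.43, adjusted p = 0.00089). The EYFP over EGFP call ranged in adjusted p from 0.0032 to 0.054 and was lost without EGFP replicate 1. EYFP cells over wild type did not pass (1.17 ± 0.45, adjusted p = 0.055) except with DESeq2 size factors (0.037, the lowest of a range that reached 0.17). The exons of Grin1 overlap those of Grin1os on the opposite strand by 165 bases, and no source used here says whether reads were assigned by strand.

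The ratio of these subunits differed by group. Per kilobase, the level of Grin2c was 32.8 and 22.6 times that of Grin1 in EYFP cells, 1.09 and 1.5 times in EGFP cells, and 0 and 0.232 times in wild-type epithelium. In wild type the Grin2 reads came from another subunit, Grin2d, at 1.2 and 1.01 CPM in EYFP cells, 2.53 and 2.79 CPM in EGFP cells and 6.83 and 8.8 CPM in wild-type epithelium. Grin2d was lower in EYFP cells relative to EGFP cells (-1.26 ± 0.38, edgeR adjusted p = 0.034, 0.033 to 0.14 over the alternatives) and lower in EGFP cells than in wild type (-1.55 ± 0.34, adjusted p = 0.008, 0.0044 to 0.060). The first call was lost with the DESeq2 Wald test, in a fit to only the 4 libraries compared and without any 1 of those 4 libraries, and the second without EGFP replicate 1 or wild-type replicate 2. With all Grin2 subunits summed, the ratio to Grin1 per kilobase was 34.4 and 24.7 in EYFP cells, 1.54 and 1.94 in EGFP cells and 10.8 and 11.7 in wild-type epithelium. These ratios to Grin1 rest on 19 and 14.2 Grin1 counts in EYFP cells, 43.8 and 58.2 in EGFP cells and 5.95 and 10.5 in wild type. Grin2b was at 2.31 and 3.27 CPM in EYFP cells, 0.544 and 0.263 CPM in EGFP cells and 0.251 and 0.24 CPM in wild-type epithelium. It was higher in EYFP than in EGFP cells (2.75 ± 0.59, adjusted p = 0.01, 0.0063 to 0.082), with the call lost without EYFP replicate 2 or EGFP replicate 2, and a value of 3.47 without EGFP replicate 1. Grin3b, a glycine-binding subunit, stayed between 1.01 and 2.08 CPM in all libraries and passed no test.

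Grid1, a delta receptor that binds cerebellins and not glutamate, was at 5.36 and 4.79 CPM in EYFP cells, 1.21 and 1.95 CPM in EGFP cells and 0.0832 and 0.0603 CPM in wild-type epithelium, which is 1 count in each wild-type library. It was 3.16-fold higher in EYFP than in EGFP cells (a log2 fold change of 1.66 ± 0.42, edgeR adjusted p = 0.019, 0.016 to 0.10 over the alternatives, lost without either EYFP replicate or EGFP replicate 1). Grm4, a metabotropic glutamate receptor that lowers cyclic AMP, was at 37.9 and 30.6 CPM in EYFP cells, 14 and 17.9 CPM in EGFP cells and 1.17 and 1.08 CPM in wild-type epithelium. It rose 2.14-fold in EYFP over EGFP cells (1.10 ± 0.21, adjusted p = 0.0066, 0.00026 to 0.058, lost without EYFP replicate 1) and 14.2-fold in EGFP cells over wild type (adjusted p = 5.2e-05). Grm2, of the same inhibitory kind, was at 3.87 and 2.1 CPM in EYFP cells, 0.723 and 2.45 CPM in EGFP cells and 0 and 0.0603 CPM in wild-type epithelium. For Grm2 the EYFP and EGFP cells overlapped, and the difference did not pass (0.87 ± 0.65, adjusted p = 0.33). Its ratio to the single wild-type count was 87.7 in EYFP cells (15.3 to 3506, adjusted p = 0.0015) and 49.7 in EGFP cells (8.36 to 2020, adjusted p = 0.0068, lost without EGFP replicate 2 at 0.051, with a ratio of 20.7). Without wild-type replicate 1 the EYFP and EGFP ratios were 50.9 and 28.9. Without wild-type replicate 2 the bounds were at least 12.3-fold and at least 6.96-fold. AMPA receptor subunits, the main fast glutamate receptors of neurons, were too scarce to be tested: Gria2, the one with the most reads, had 3 and 11 counts in EYFP cells, 6 and 0 in EGFP cells and 0 in wild type.

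Of 21 tested genes for auxiliary proteins and scaffolds of the glutamate receptors, 9 were higher and 2 lower in EYFP cells relative to EGFP cells, and 10 did not pass (median log2 fold change 0.77). The shares higher and lower were 42.9% and 9.52%, beside 16.8% and 19.4% of all genes tested. Neto1, an auxiliary subunit of kainate receptors, was at 35.4 and 45.8 CPM in EYFP cells, 10.1 and 10.1 CPM in EGFP cells and 0.416 and 0.482 CPM in wild-type epithelium; it was among the 2 genes of the list with the largest rise in EGFP cells over wild type (4.45 ± 0.29, edgeR adjusted p = 4e-05). Dlg4 (PSD-95), the scaffold of excitatory synapses, was at 85.7 and 69.6 CPM in EYFP cells, 14.2 and 18.4 CPM in EGFP cells and 0.499 and 1.15 CPM in wild-type epithelium (difference of EYFP over EGFP, 2.24 ± 0.25, adjusted p = 0.00079). Shisa6, an AMPA receptor partner, was at 5.84 and 5.44 CPM in EYFP cells and 0.964 and 0.677 CPM in EGFP cells (2.79 ± 0.44, adjusted p = 0.0027), while the AMPA receptor genes themselves had few reads. Cacng4, of the same kind, had 1 wild-type count. It was 139-fold higher in EYFP cells than in wild type (95% interval 24.5 to 5541) and 41.2-fold higher in EGFP cells (6.83 to 1683). Without wild-type replicate 1 the EYFP and EGFP bounds were at least 26.9-fold and at least 7.97-fold. Without wild-type replicate 2 the ratios were 58.5 and 17.3. The scaffold gene Shank2 was lower in EYFP cells, at 2.57 and 3.2 CPM in EYFP cells, 13.5 and 15 CPM in EGFP cells and 23.3 and 16.5 CPM in wild-type epithelium (difference of EYFP over EGFP, -2.30 ± 0.27, adjusted p = 0.00092). Against wild type, 11 of the 21 were higher and 3 lower in EGFP cells (52.4% and 14.3%, beside 19.6% and 21.9% of all genes tested). In EYFP cells 13 were higher and 5 lower (61.9% and 23.8%, beside 27.1% and 33.5%).

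Muscarinic receptors, the G-protein-coupled acetylcholine receptors, kept a near constant sum in sorted cells, at 48.0 and 52.7 CPM in EYFP cells, 48.8 and 51.9 CPM in EGFP cells and 6.0 and 8.74 CPM in wild-type epithelium, but its members differed in direction. Chrm1, coupled to calcium release, lies on chromosome 19 from 8664005 to 8683606 and was at 0.634 and 0.504 CPM in EYFP cells, 27.5 and 28.4 CPM in EGFP cells and 2.32 and 2.23 CPM in wild-type epithelium. It was 47.9-fold lower in EYFP cells relative to EGFP cells (a log2 fold change of -5.58 ± 0.29, edgeR adjusted p = 8.6e-05), the largest difference among the 29 genes. The exons of Chrm1 overlap those of Gm22820 on the opposite strand by 329 bases. It was 12.2-fold higher in EGFP cells than in wild type (adjusted p = 4.2e-05) and 3.92-fold lower in EYFP cells than in wild type (adjusted p = 0.00092). This order, EGFP above wild type above EYFP, is also that of the summed goblet, Paneth and tuft cell markers given above. Of these markers, 12 of 13 were lower in EYFP cells relative to EGFP cells (92.3%, beside 19.4% of all genes tested). In EGFP cells 8 of 13 were higher than in wild type (61.5%, beside 19.6%). The part of these cell types in the Chrm1 level was not tested.

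Chrm3, which shares the coupling of Chrm1, and Chrm4, which lowers cyclic AMP, were highest in EYFP cells. Chrm4 was at 23.5 and 35.4 CPM in EYFP cells, 10.5 and 13.7 CPM in EGFP cells and 0.35 and 1.15 CPM in wild-type epithelium. It was 2.42-fold higher in EYFP than in EGFP cells (1.28 ± 0.36, edgeR adjusted p = 0.031, 0.0044 to 0.18 over the alternatives, lost without EYFP replicate 2 or either EGFP replicate). It was 15.3-fold higher in EGFP cells than in wild type (3.94 ± 0.47, adjusted p = 0.00059, and 5.15 without wild-type replicate 2). Chrm3 was at 23.9 and 16.8 CPM in EYFP cells, 10.8 and 9.8 CPM in EGFP cells and 3.33 and 5.36 CPM in wild-type epithelium. It was 1.97-fold higher in EYFP than in EGFP cells (0.98 ± 0.29, adjusted p = 0.032, 0.011 to 0.20, lost without EYFP replicate 1 or either EGFP replicate), and 2.35-fold higher in EGFP cells than in wild type (adjusted p = 0.014, 0.0023 to 0.054, lost without wild-type replicate 1). Chrm2 and Chrm5 had 0 counts in all libraries.

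Nicotinic receptors are cation channels built from alpha and other subunits. Of their 5 tested genes, 1 was higher and 0 lower in EYFP over EGFP cells, beside 16.8% and 19.4% of all genes tested. The beta subunit Chrnb2, on chromosome 3 from 89753448 to 89764632, was at 31 and 29.2 CPM in EYFP cells, 6.39 and 12.3 CPM in EGFP cells and 4.66 and 5.42 CPM in wild-type epithelium. It was 3.18-fold higher in EYFP than in EGFP cells (a log2 fold change of 1.67 ± 0.30, edgeR adjusted p = 0.0049), and 5.95-fold higher in EYFP cells than in wild type (adjusted p = 0.00026). EGFP cells over wild type did not pass (0.90 ± 0.31, adjusted p = 0.052), but did so under 6 of the 13 alternatives (0.0075 to 0.42), DESeq2 size factors among them. Its exons overlap those of Adar on the opposite strand by 1014 bases, so that reads of the 2 genes there cannot be told apart unless strand was used. The other neuronal beta subunit, Chrnb4, was at 7.69 and 5.92 CPM in EYFP cells, 13.9 and 9.73 CPM in EGFP cells and 2.04 and 2.13 CPM in wild-type epithelium. It passed against wild type in EGFP cells (5.69-fold, adjusted p = 0.00067) and in EYFP cells (3.29-fold, adjusted p = 0.0023), and not between EYFP and EGFP cells (-0.79 ± 0.30, adjusted p = 0.072).

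Chrnb4 lies next to Chrna3 and Chrna5 on chromosome 9, a cluster whose genes form the receptor of autonomic ganglia. Chrna3 was at 1.13 and 0.925 CPM in EYFP cells, 0.121 and 0.507 CPM in EGFP cells and 0 in both wild-type libraries, at least 9.87-fold higher in EYFP cells than in wild type (edgeR adjusted p = 0.0043). Without wild-type replicate 1 or replicate 2 this bound was 5.72-fold or 4.14-fold, and the call was not lost. It was at least 3.32-fold higher in EGFP cells than in wild type (adjusted p = 0.04, 0.036 to 0.28 over the alternatives, lost in 8 of 12, among them with any 1 of the 6 libraries left out). Between EYFP and EGFP cells Chrna3 did not pass (1.58 ± 0.77, adjusted p = 0.15). Chrna5 had 6 and 4 counts in EYFP cells, 0 in both EGFP libraries and 0 and 1 in wild-type epithelium, and its span in RefSeq overlaps that of Chrna3 on the opposite strand. The muscle-type subunit Chrna1 was at 0.379 and 1.03 CPM in EYFP cells, 1.76 and 2.34 CPM in EGFP cells and 0.669 and 0.465 CPM in wild-type epithelium. It passed in EGFP cells over wild type alone (1.87 ± 0.61, adjusted p = 0.041, 0.020 to 0.20, lost in 6 of 13). Chrnb1, its partner in muscle, stayed between 1.57 and 3.92 CPM and passed no test. Chrna4, the usual partner of Chrnb2 in the brain, had 0 counts in all libraries, and Chrna7 had 1.

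Of the 11 tested partners of cholinergic receptors, 5 were higher and 4 lower in EYFP cells relative to EGFP cells (median log2 fold change 0.44). The shares higher and lower were 45.5% and 36.4%, beside 16.8% and 19.4% of all genes tested. The 5 that rose were Lypd1, Lypd6, Lynx1, the chaperone gene Ric3 and Nrg1, and each was also past the test in EYFP cells and in EGFP cells over wild type. The 4 that fell were Ly6e, Agrn, Rer1 and Lrp4, with log2 fold changes of -1.64, -0.85, -0.74 and -0.72. Ly6e was at 80.3 and 64.4 CPM in EYFP cells and 250 and 201 CPM in EGFP cells. The list, 15 genes with a row, summed to 389 and 373 CPM in EYFP cells and 605 and 573 CPM in EGFP cells. In wild-type epithelium the sum was 697 and 873 CPM. Lypd1, of a family of toxin-like proteins that bind nicotinic receptors, was at 16.2 and 16.3 CPM in EYFP cells, 2.95 and 2.41 CPM in EGFP cells and 0.478 and 0.341 CPM in wild-type epithelium (difference of EYFP over EGFP, 2.61 ± 0.29, edgeR adjusted p = 0.00073). Lypd6, of the same family, was at 23.7 and 18.7 CPM in EYFP cells, 3.86 and 6 CPM in EGFP cells and 0.666 and 1.27 CPM in wild-type epithelium (2.09 ± 0.33, adjusted p = 0.0029). Lynx1, which dampens nicotinic currents, was at 25.1 and 20.5 CPM in EYFP cells, 6.27 and 7.77 CPM in EGFP cells and 0.416 and 1.02 CPM in wild-type epithelium, 3.21 ± 0.39 higher in EGFP cells than in wild type (adjusted p = 0.0005). Nrg1, a growth factor that raises nicotinic receptor synthesis in muscle, was at 1.76 and 2.27 CPM in EYFP cells, 0.241 and 0.592 CPM in EGFP cells and 0 in wild-type epithelium (2.18 ± 0.64, adjusted p = 0.037, 0.024 to 0.19 over the alternatives, lost in 5 of 13). It was at least 19.0-fold higher in EYFP cells than in wild type. That bound was 11.02-fold without wild-type replicate 1 and 7.98-fold without wild-type replicate 2. In EGFP cells it was at least 4.26-fold higher than in wild type, from 9 counts against 0 (adjusted p = 0.019, 0.012 to 0.12). That call was lost without EGFP replicate 2 (0.12), wild-type replicate 1 (0.051) or wild-type replicate 2 (0.076). Against wild type, 6 of the 11 were higher in each sorted group (54.5%, beside 19.6% of all genes tested in EGFP cells and 27.1% in EYFP cells). Lower were 3 in EGFP cells (27.3%, beside 21.9%) and 4 in EYFP cells (36.4%, beside 33.5%), near the shares of all genes.

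Serotonin receptors were scarce, summing to 2.46 and 5.46 CPM in EYFP cells, 4.78 and 4.23 CPM in EGFP cells and 4.41 and 3.19 CPM in wild-type epithelium. Only Htr1d and Htr4 of the 14 were tested. Htr1d, which lowers cyclic AMP, was at 1.2 and 3.7 CPM in EYFP cells, 0.844 and 2.54 CPM in EGFP cells and 0.0832 and 0.0603 CPM in wild-type epithelium. Its ratio to wild type, which had 1 count per library, was 33.4 in EYFP cells (8.87 to 282, edgeR adjusted p = 0.0038) and 26.3 in EGFP cells (6.78 to 225, adjusted p = 0.011, 0.002 to 0.085 over the alternatives, lost without EGFP replicate 2 or either wild-type replicate). Leaving out EYFP replicate 1 moved the EYFP ratio to 52.9, and leaving out EYFP replicate 2 moved it to 17.1. The EGFP ratio was 12.1 without EGFP replicate 2. EYFP and EGFP cells overlapped (0.48 ± 0.69, adjusted p = 0.62). Htr4, which raises cyclic AMP, was at 0.775 and 1.01 CPM in EYFP cells, 3.5 and 1.52 CPM in EGFP cells and 4.24 and 2.95 CPM in wild-type epithelium. It was 4.0-fold lower in EYFP cells than in wild type (-2.0 ± 0.54, adjusted p = 0.013, 0.0058 to 0.072, lost without EYFP replicate 1 or wild-type replicate 1) and did not pass between EYFP and EGFP cells (-1.46 ± 0.55, adjusted p = 0.074; -1.97 and past the test without EGFP replicate 2). The channel subunits Htr3a and Htr3b had 2 and 1 counts in all. Glycine receptors were absent at this depth, with 0 counts for Glra1, Glra2, Glra3 and Glrb and 3 for Glra4.

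Genes that make and carry the transmitters were counted by transmitter, beside shares of 16.8% higher and 19.4% lower in EYFP over EGFP cells among all genes tested. For GABA and glycine, 2 of 7 tested genes were higher and 2 lower (28.6% each). Gad1, which makes GABA, was at 1.76 and 0.756 CPM in EYFP cells, 0.121 and 0 CPM in EGFP cells and 0.0832 and 0.241 CPM in wild-type epithelium, a ratio of 26.2 to the single EGFP count (95% interval 4.40 to 1066, edgeR adjusted p = 0.019, 0.012 to 0.13 over the alternatives, lost without EYFP replicate 1 or either EGFP replicate). The ratio was 15.2 without EYFP replicate 1 and 10.8 without EGFP replicate 2. It was at least 5.14 without EGFP replicate 1. Against wild type Gad1 passed in EYFP cells (2.82 ± 0.85, adjusted p = 0.021, 0.014 to 0.17, lost in 4 of 12). The vesicular GABA transporter Slc32a1 (named after its values were seen) had 0 counts in all libraries. The glycine transporter Slc6a9 was at 2.89 and 4.71 CPM in EYFP cells, 17.5 and 33.1 CPM in EGFP cells and 5.91 and 6.87 CPM in wild-type epithelium (difference of EYFP over EGFP, -2.75 ± 0.38, adjusted p = 0.0018). Slc6a12, a betaine and GABA transporter, passed in EYFP cells over wild type alone (2.64 ± 0.91, adjusted p = 0.037, 0.012 to 0.18, lost in 4 of 13).

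For glutamate, 1 of 10 tested genes was higher and 2 were lower in EYFP cells relative to EGFP cells, 10% and 20%, which is near the shares of all genes. Glud1, which interconverts glutamate and alpha-ketoglutarate, was at 919 and 737 CPM in EYFP cells, 261 and 254 CPM in EGFP cells and 431 and 606 CPM in wild-type epithelium (1.68 ± 0.22, edgeR adjusted p = 0.0014). The uptake transporters Slc1a3 and Slc1a1 fell by 2.52 ± 0.21 and by 1.62 ± 0.22 on the log2 scale in EYFP over EGFP cells, and were lower in EGFP cells than in wild type too (-1.25 ± 0.19 and -1.20 ± 0.21). Glul, which makes glutamine, was higher in EGFP cells than in wild type (2.19 ± 0.21), and Srr, which makes D-serine, an NMDA receptor co-agonist, was lower (-2.08 ± 0.29). For acetylcholine, 0 of 5 tested genes were higher in EYFP than in EGFP cells and 1 was lower (20%, near the share of all genes), the choline transporter Slc44a1 (-0.52 ± 0.14, adjusted p = 0.021, 0.019 to 0.12, lost without any 1 of the 4 libraries). Bche, an acetylcholine-degrading enzyme, was at 17.7 and 32.2 CPM in EYFP cells, 32.4 and 29.2 CPM in EGFP cells and 285 and 308 CPM in wild-type epithelium, and Ache, the main one, was higher in EGFP cells than in wild type (1.78 ± 0.49, adjusted p = 0.024, 0.0022 to 0.13, lost without EGFP replicate 1 or either wild-type replicate). For serotonin, 5 of 7 tested genes were higher and 2 lower in EYFP cells relative to EGFP cells. Tph1 and Ddc, which make it, rose by 1.96 ± 0.31 and 1.95 ± 0.24, and the vesicular transporter Slc18a1 by 1.77 ± 0.32. Maoa, which degrades it, was lower in EGFP cells than in wild type (-3.64 ± 0.25), and the vesicular transporter Slc18a2 was higher in EYFP cells than in wild type (4.76 ± 0.27).

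Cells other than epithelium that carry these receptors were looked for by their markers. Neuron and glia markers (17 genes) summed to 30.8 and 48.1 CPM in EYFP cells, 15.1 and 15.3 CPM in EGFP cells and 2.83 and 4.10 CPM in wild-type epithelium. Of the 6 tested, 3 were higher in EYFP than in EGFP cells (Elavl3, Elavl4 and Th) and 0 lower. Their shares were 50% and 0%, beside 16.8% and 19.4% of all genes tested. Chat lay lower in EYFP cells but did not pass (edgeR adjusted p = 0.087). It was at 0 and 0.0841 CPM there and at 1.69 and 0.93 CPM in EGFP cells. The median log2 fold change of the 6 was 1.5. In EYFP cells over wild type 5 of the 6 were higher and 0 lower (83.3% and 0%, beside 27.1% and 33.5%, median 4.56). In EGFP cells over wild type 2 were higher and 0 lower (33.3% and 0%, beside 19.6% and 21.9%, median 2.43). The other 11 had too few counts to be tested, and of these Sox10 and Hand2 had 0 counts in all libraries. Immune markers (13 genes) summed to 245 and 11.4 CPM in EYFP cells, 11.1 and 48.0 CPM in EGFP cells and 198 and 242 CPM in wild-type epithelium. Muscle, stroma and vessel markers (14 genes) summed to 130 and 109 CPM in EYFP cells, 149 and 152 CPM in EGFP cells and 22.8 and 57.9 CPM in wild-type epithelium, in sorted cells mostly from Kit, at 107 and 87.2 CPM in EYFP cells, 128 and 142 CPM in EGFP cells and 17.6 and 26.8 CPM in wild-type epithelium. Enteroendocrine markers moved with the receptor genes that were highest in EYFP cells: 13 of 14 were higher in EYFP than in EGFP cells, with a median log2 fold change of 1.97, and 14 of 14 were higher in each sorted group than in wild type. Of all genes tested, 16.8% were higher in EYFP over EGFP cells. Over wild type, 19.6% were higher in EGFP cells and 27.1% in EYFP cells. Enterocyte markers (10 genes) summed to 1884 and 2653 CPM in EYFP cells, 1975 and 2468 CPM in EGFP cells and 30904 and 53638 CPM in wild-type epithelium. They shared with Grin2d only that both were highest in wild type. Between EYFP and EGFP cells, where Grin2d was lower in EYFP cells, 9 of the 10 markers did not pass (median log2 fold change -0.07). The part of these cell types in the receptor levels was not tested.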

How the data were processed

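RNA was measured in 6 libraries, 2 per group, from the labels' genotypes. Per the labels' protocols, RNeasy Micro RNA was made into TruSeq libraries and read single-end on a HiSeq2000. The submitters' processing notes name the build mm10 and the tools RSEM 1.3.1, Bowtie2, DESeq2 1.26.0 and FastQC 0.11.8, without their settings; the use of strand is not given in the sources used. Estimated counts are the values the authors deposited, in which a read that matches several genes is shared out between them, so that counts can be fractional.

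Counts were rounded to whole numbers, filtered with filterByExpr (13935 of 23845 genes, 58.4%, and 29 of the 87 receptor genes, 33.3%), scaled with TMM and tested with edgeR 4.0.16 in R 4.3.3 (quasi-likelihood F test, robust, 1 model of 3 group means, 3 residual degrees of freedom, Benjamini-Hochberg adjustment over all genes tested, threshold 0.05). The biological coefficient of variation was 19.8%, and the script was tested on simulated data. SE are derived from F. CPM are counts over the TMM-scaled library total. CPM per kilobase use the mean length of the GENCODE M21 transcripts matched to each gene. Where a group had 0 counts, folds are bounds against a floor of 3 counts over the group; with 1 to 3 counts, ratios carry an exact 95% interval (Clopper-Pearson). Both cover counting error only. Coordinates and promoters are RefSeq's (GRCm38.p6). Motifs were searched on both strands.

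The genes and lists were chosen with earlier results of these data known. Named were each receptor gene past a test, the most abundant of those past none in a family, and of each list of transmitter or partner genes the 3 with the largest change past the test in EYFP over EGFP cells and the 2 largest in each other comparison; other names were picked with their values known. Some of these genes are counted but not reported here by name, and are not drawn. Alternatives tried were DESeq2 (1.42.0) size factors or Wald test, leaving the 50 most abundant genes out of the scaling, no filter or a minimum of 10 counts, only the 4 libraries compared, a replicate block, and each library left out. An alternative detection level was 0.5 CPM.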

Additional observations from a re-analysis of the deposited data

How the results depend on the processing

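Over 189 results and 2402 alternative values, 122 lost a call and 22 gained one. A change of direction was counted as a reversal only where the main or the alternative value was called, and 0 were. Values called in neither could change direction. Htr1d in EYFP over EGFP cells, for example, was 0.48 with all libraries and -0.54 without EYFP replicate 2. Of the receptor genes called, 7 of 18 in EYFP over EGFP cells (Chrm1, Chrnb2, Gabra2, Gabre, Grik4, Grik5 and Grin2c), 13 of 22 in EGFP cells over wild type and 22 of 25 in EYFP cells over wild type kept their call under every alternative run. With 1 library left out, where a lone library is assumed to vary like the others, EYFP over EGFP cells had 8 to 14 receptor genes higher and 1 to 3 lower, the lowest counts being 8 and 1 without EGFP replicate 1 and 9 higher without EYFP replicate 2. Calls over all genes fell too, to 1138 higher and 1254 lower without EGFP replicate 1 and 1350 and 1582 without EYFP replicate 2, against 2343 and 2702 with all libraries. In EGFP cells over wild type fewer receptor genes were then higher than with all libraries, whichever library was left out. Calls over all genes fell in that comparison too, both higher and lower. Genes of the transmitter and partner lists numbered 18 to 29 higher and 7 to 15 lower in EYFP over EGFP cells (28 and 13 with all libraries) and 11 to 18 lower in EGFP cells over wild type (17 with all libraries). EYFP cells over wild type had 20 to 22 receptor genes higher and 2 to 3 lower. With no filter on low counts, EGFP cells over wild type had 2 receptor genes lower, Grin2d and Chrna2, and Chrna2 was also called without wild-type replicate 1. With no filter, EYFP cells over wild type had 26 higher, among those added Grik1, Grik2, Gria2 and Htr5b, each at 0 counts in wild type, while Gabbr2 was lost. The replicate number, which did not pair the libraries (correlations of 0.0224, 0.0964 and 0.0143 between groups), gave as a replicate block 15 higher and 3 lower in EYFP over EGFP cells, 19 and 1 in EGFP cells over wild type, and 22 and 3 in EYFP cells over wild type. At 0.5 CPM, 29, 24 and 14 receptor genes were detected in EYFP cells, EGFP cells and wild-type epithelium. With 1 count worth 0.0603 to 0.121 CPM, a difference in the 58 untested receptor genes was not detectable at this depth.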

Other observations

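Of the 58 receptor genes that were not tested, 13 had 10 or more counts in all, and those given here were chosen after their values were seen. Chrna2, a neuronal nicotinic alpha subunit, had 5 and 4 counts in EYFP cells, 0 and 2 in EGFP cells and 6 and 22 in wild-type epithelium. The NMDA subunit Grin2a had 1 and 0 counts in EYFP cells, 2 and 0 in EGFP cells and 3 and 13 in wild-type epithelium. For both genes most reads came from wild-type replicate 2, the deepest library. Grin3a, a glycine-binding NMDA subunit, had 17 and 6 counts in EYFP cells, 5 and 5 in EGFP cells and 1 and 5 in wild-type epithelium. Htr5b, a serotonin receptor, had 3 and 7 counts in EYFP cells, 2 and 0 in EGFP cells and 0 in wild-type epithelium. Gabrr2, a rho subunit of the GABA-A family, had 6 and 10 counts in EYFP cells, 2 and 6 in EGFP cells and 5 and 14 in wild-type epithelium.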
